A study of Mus musculus with 8 samples.

Results

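Ccl5, Cxcl13 and 8 genes of lymphocytes (Cd3e, Cd3g, Cd8a, Nkg7, Ms4a4b, Ighm, Cd52 and Cd79b) were followed across hippocampal arrays of 3xTg-AD mice. Every probe set whose annotation names 1 of these 10 genes and no other was taken, which gave 26 of the 45037 probe sets on the array. A further 4 probe sets that name one of the genes together with others were left out. The genes had been picked with earlier results of these arrays known, the comparison of the diets included, so their differences between the diets are given as a description without a test.

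The RA group consisted of 4 arrays of male 3xTg-AD mice fed a diet with 0.5% rosmarinic acid (RA), a polyphenol of herbs, for 8 months, and the control group of 4 arrays of male 3xTg-AD mice of the same age kept on the plain AIN-93G diet. All mice were 10 months old, and both groups carried the same 3 disease transgenes, those of mutant amyloid precursor protein, tau and presenilin 1, so there was no group without them. Total RNA of each sample was read on 1 Affymetrix array of the mouse genome, and the values are log2 summaries of probe sets, which are groups of short probes against 1 transcript. The methods name 4 mice per group and also mention pooled RNA, so whether an array stands for 1 animal is not known, and the spread between arrays may be partly technical.

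Chemokines are small secreted proteins that guide leukocytes. Ccl5 draws T cells, natural killer cells and monocytes, and is made by activated T cells and glia, while Cxcl13 draws B cells to lymphoid follicles through the receptor Cxcr5. The healthy brain parenchyma holds few lymphocytes, which are found mainly in the meninges, the choroid plexus and the blood. Cd3e and Cd3g are chains of the T cell receptor complex, Cd8a is the co-receptor of cytotoxic T cells, Nkg7 is a protein of cytotoxic granules, and Ms4a4b is a membrane protein of T cells. Ighm is the constant region of the IgM heavy chain and Cd79b a signalling chain of the B cell receptor. Cd52 is a surface glycoprotein of mature lymphocytes and of other leukocytes.

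Of the 10 genes, 4 had a measured probe set and 6 had none. FARMS, the summary that the authors used, leaves a probe set almost constant when its probes have no signal in common. A probe set was counted as measured where its SD over the 8 arrays was above 0.01. This limit is on variation between arrays, so an unmeasured gene may still be expressed. An unmeasured Ighm probe set had a log2 mean of 6.97, above the group means of both measured Ighm probe sets. Only 6 of the 26 probe sets passed (23.1%, against 8.34% of all probe sets), namely 1 of Ccl5, 2 of Cxcl13, 2 of the 11 of Ighm and 1 of Cd52. Their SDs ranged from 0.16 for Cd52 to 0.763 for Cxcl13. In the other 20 the SD was 0.000367 or less, so that no probe set lay near the limit. Cd3e (log2 mean 6.27), Cd3g (5.29), Cd8a (5.13 to 5.97 over 5 probe sets), Nkg7 (5.44), Ms4a4b (5.07 and 5.12), Cd79b (5.30) and 9 probe sets of Ighm were therefore unmeasured. For them the values give neither a difference between the diets nor a difference between arrays.

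**Figure D1:**
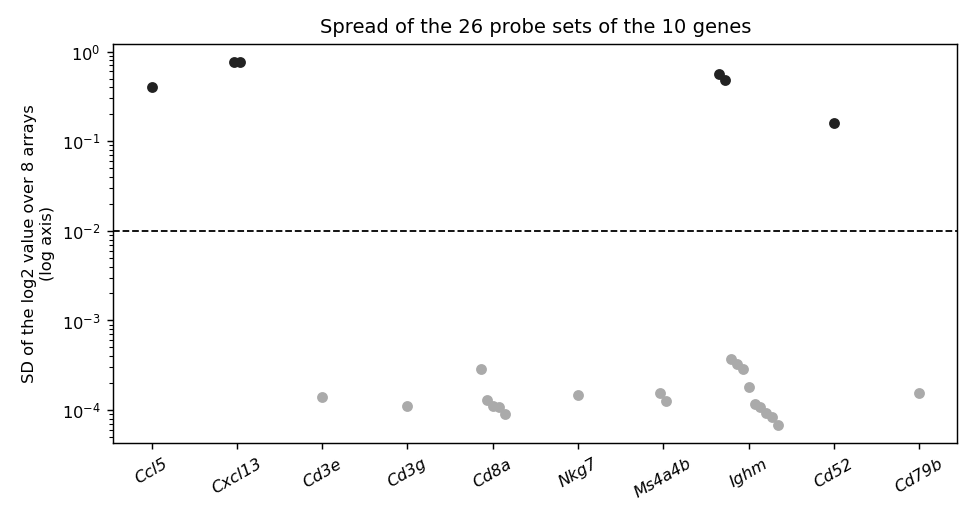
SD of the log2 value over 8 arrays (log axis) of each of the 26 probe sets, by gene. Black points are measured and grey points unmeasured, and the dashed line is the limit of 0.01. The 6 black points lie between 0.16 and 0.763, and the 20 grey points at or below 0.000367.

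The same held for lymphocyte markers at large. Of 81 genes on lists of T cell, cytotoxic and natural killer cell, B cell and plasma cell markers, 70 had a probe set naming them alone, and 4 of their 119 probe sets were measured, those of Ccl5, of Ighm and of Eomes, a transcription factor of cytotoxic cells that some neurons also make. None of the 24 T cell marker genes with a probe set was measured, the co-receptor Cd4 and the signalling chains Cd247 and Zap70 included. None of the 8 plasma cell marker genes was measured. Over the whole array 8.34% of probe sets were measured. Of all 18193 genes 11.7% were, each counted by its probe set with the highest mean, so most genes of any kind were unmeasured. The set is thus a set of lymphocyte genes by name, whereas its measured values are those of 2 chemokines, 1 immunoglobulin chain and Cd52. In whole tissue, fewer cells of a type and less RNA per cell cannot be told apart.

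Ccl5 has 1 probe set. Its log2 value was 6.15, 5.29, 5.44 and 5.57 in RA 1 to RA 4, against 5.59, 6.49, 5.71 and 5.54 in control 1 to control 4. Control 2 stood highest and RA 1 next. The other 3 arrays lay between 5.29 and 5.57 in the RA group and between 5.54 and 5.71 in the control group. The groups overlapped, with RA 1 above every control array but control 2. The mean was 5.61 ± 0.379 (SD, n = 4) in the RA group and 5.83 ± 0.442 (SD, n = 4) in the control group, a difference of -0.22 on the log2 scale (limma standard error 0.279), or 0.858 times the control level. The difference between the diets was smaller than the SD within either group. Without control 2 the log2 fold change was -0.002, and without RA 1 it was -0.40, the ends of its range when 1 array was left out.

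Cxcl13 has 2 probe sets, for which the annotation cites the same transcript and which gave nearly the same profile (Pearson r = 0.99 over 8 arrays, as a description). The first had log2 values of 7.24, 5.57, 5.66 and 6.65 in RA 1 to RA 4, against 6.18, 7.61, 6.26 and 5.65 in control 1 to control 4. Again control 2 was the highest array and RA 1 the second, RA 2 was the lowest, and the groups overlapped over most of their range. The distance between the highest and the lowest array was 2.04 on the log2 scale, which is 4.1-fold, the widest among the 10 genes apart from the other Cxcl13 probe set (2.07). The mean was 6.28 ± 0.807 (SD, n = 4) in the RA group and 6.43 ± 0.833 (SD, n = 4) in the control group, a difference of -0.14 on the log2 scale (limma standard error 0.556). The second probe set had log2 values of 7.30, 5.53, 5.64 and 6.39 in RA 1 to RA 4, against 6.05, 7.59, 6.16 and 5.78 in control 1 to control 4, with the same 2 arrays on top. It had a mean of 6.21 ± 0.82 (SD, n = 4) in the RA group and 6.40 ± 0.812 (SD, n = 4) in the control group, a difference of -0.18 on the log2 scale (limma standard error 0.553). Neither fold change kept its sign when 1 array was left out, since both were above 0 without control 2 (0.251 and 0.215), RA 2 (0.094 and 0.047) or RA 3 (0.064 and 0.009).

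**Figure D2:**
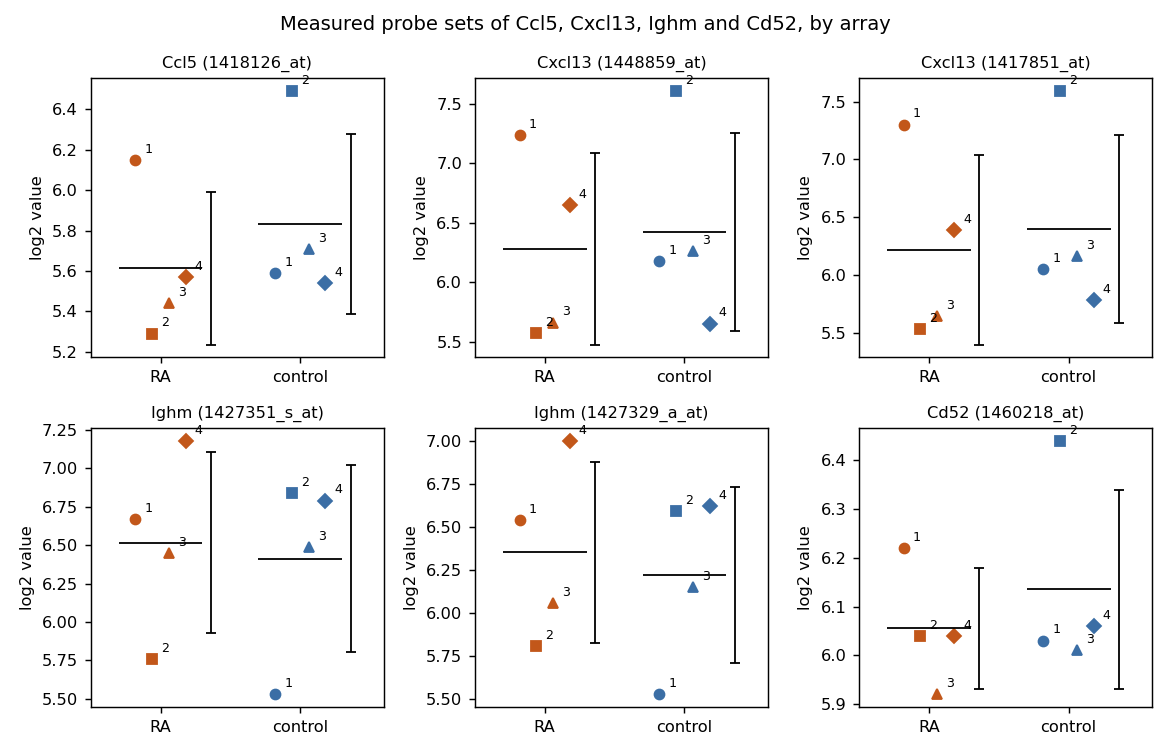
Log2 values of the 6 measured probe sets in the 4 RA and the 4 control arrays, with the array number beside each point, a line at the group mean and a bar of ± 1 SD. In Ccl5, Cxcl13 and Cd52 control 2 is the highest array and RA 1 the second, while Ighm is highest in RA 4 and lowest in control 1.

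Cd52 had the smallest spread of the 4 genes. Its log2 value was 6.22, 6.04, 5.92 and 6.04 in RA 1 to RA 4, against 6.03, 6.44, 6.01 and 6.06 in control 1 to control 4. Control 2 and RA 1 were again on top, and the remaining 6 arrays lay between 5.92 and 6.06. The mean was 6.06 ± 0.121 (SD, n = 4) in the RA group and 6.13 ± 0.203 (SD, n = 4) in the control group, a difference of -0.08 on the log2 scale (limma standard error 0.113), which was 0.024 without control 2. Ptprc, the phosphatase CD45 that marks nearly all leukocytes, was the other measured gene of the leukocyte list. It had another order, with its highest log2 values in RA 2 (6.10) and RA 1 (6.08) and control 2 at 5.99, and a mean of 5.91 ± 0.207 (SD, n = 4) in the RA group and 5.86 ± 0.187 (SD, n = 4) in the control group.

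Ighm followed another order. Its brighter measured probe set had log2 values of 6.67, 5.76, 6.45 and 7.18 in RA 1 to RA 4, against 5.53, 6.84, 6.49 and 6.79 in control 1 to control 4. RA 4 was the highest array and control 1 the lowest, with RA 2 just above it, and 3 of the 4 control arrays lay within the range of the RA arrays. The mean was 6.52 ± 0.587 (SD, n = 4) in the RA group and 6.41 ± 0.608 (SD, n = 4) in the control group, a difference of 0.10 on the log2 scale (limma standard error 0.405). The other measured probe set had log2 values of 6.54, 5.81 and 6.06 in RA 1 to RA 3, against 5.53, 6.59, 6.15 and 6.62 in control 1 to control 4, and RA 4 was the highest array, 1.47 above control 1. It had a mean of 6.35 ± 0.527 (SD, n = 4) in the RA group and 6.22 ± 0.511 (SD, n = 4) in the control group, a difference of 0.13 on the log2 scale (limma standard error 0.352). Both fold changes were below 0 without control 1 (-0.19 and -0.10) or without RA 4 (-0.12 and -0.09). The identifier of the brighter probe set marks it as one that may detect several transcripts. The remaining 9 Ighm probe sets were constant, and Cd79b, the partner of IgM in the B cell receptor, was unmeasured.

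Of the 6 measured probe sets the RA mean was above the control mean in 2 and below it in 4, and the median log2 fold change was -0.11, against 0.069 over all 3758 measured probe sets. The median of the 6 was above 0 without control 2 (0.23), RA 2 (0.07) or RA 3 (0.036). The RA and control arrays overlapped in each of the 6, whereas 5.59% of all measured probe sets had groups that did not overlap. The rank product, the test named in the methods for these arrays, called 413 probe sets higher (0.917%) and 259 lower (0.575%) in the RA group (1.49% in either direction) where the expected share of false calls was below 0.05. Among the 26 probe sets it called none higher and 3 lower, which were those of Ccl5 (0.0315) and Cxcl13 (0.0373 and 0.019). Nothing is read from these calls, because the genes were chosen from the same comparison and because the test compares probe sets across the whole array without weighing each one by its own spread, so that a probe set with a wide spread in both groups reaches extreme ranks. All calls came from the measured probe sets, of which 6.89% were called lower. limma, which does weigh each probe set by its spread, called no probe set of the array at an adjusted p under 0.05 (0% in either direction), with a lowest adjusted p of 0.252 and 4553 probe sets at an unadjusted p under 0.05.

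The 3 calls depended on single arrays and on the settings of the test. None was made at a threshold of 0.01, with the rank sum or among probe sets with an SD above 0.01 alone. With the replicate block Ccl5 was not called, and with the filter on low means, which left Ccl5 out, the second Cxcl13 probe set alone was called. When each of the 8 arrays was left out in turn, Ccl5 and the first Cxcl13 probe set were called lower in 3 of the 8 fits and the second Cxcl13 probe set in 5, and none was called without control 2, RA 2 or RA 3. Without both control 2 and RA 1, which was tried after the values were seen, none was called either, and the log2 fold changes were -0.18 for Ccl5, -0.07 and -0.15 for Cxcl13, -0.03 for Cd52 and 0.20 and 0.19 for Ighm.

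**Figure D3:**
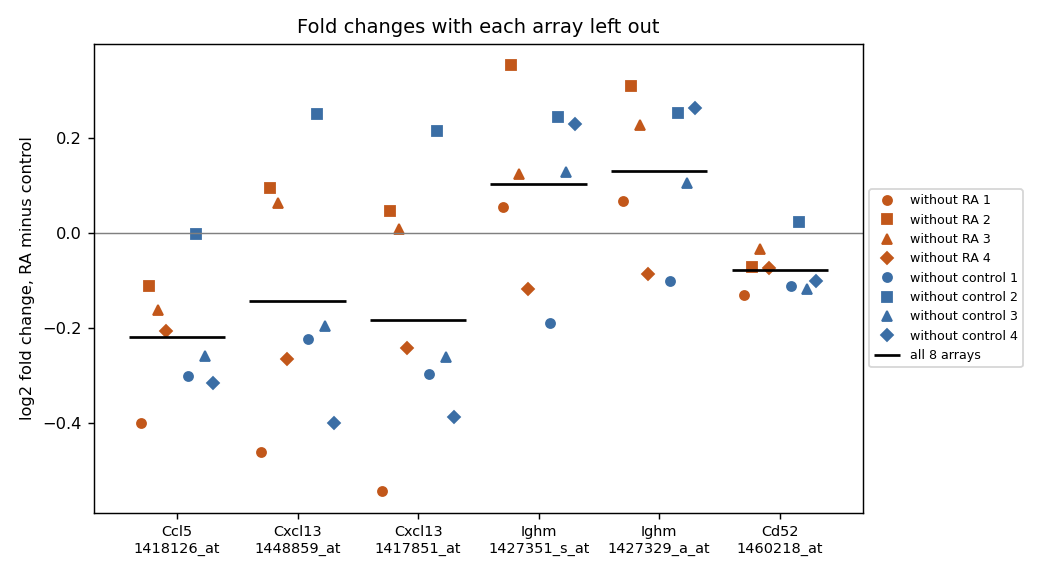
Log2 fold change (RA minus control) of the 6 measured probe sets with all 8 arrays (black line) and with each array left out (orange points for an RA array, blue for a control array, shape for its number). Ccl5 runs from -0.40 without RA 1 to -0.002 without control 2, and both Cxcl13 probe sets lie on either side of 0.

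Whether the genes were high in the same arrays can be read from the order of the arrays. Control 2 and RA 1 were the 2 highest arrays in 4 of the 6 probe sets, those of Ccl5, Cxcl13 and Cd52, but in 71 of all 3758 measured probe sets (1.89%). This pair of arrays was picked from the values of these same probe sets, and 2 of the 4 are of Cxcl13. The contrast is therefore a description and not a test. Control 2 alone was the highest array in 12.3% of all measured probe sets and RA 1 in 3.43%. The high arrays thus came from both diets. Ccl5 and the first Cxcl13 probe set had a Pearson r of 0.93 and a Spearman rho of 0.90 over the 8 arrays, given as a description because the genes were picked together. The Pearson r was 0.67 over the 6 arrays without control 2 and RA 1, lower than over all arrays. For Ccl5 and Cd52, r was 0.91 over 8 arrays and 0.09 over these 6, so that the high value rested on the 2 high arrays. Ighm was less like Ccl5 (r = 0.41) and Cxcl13 (r = 0.45), while its own 2 probe sets ran together (r = 0.97).

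**Figure D4:**
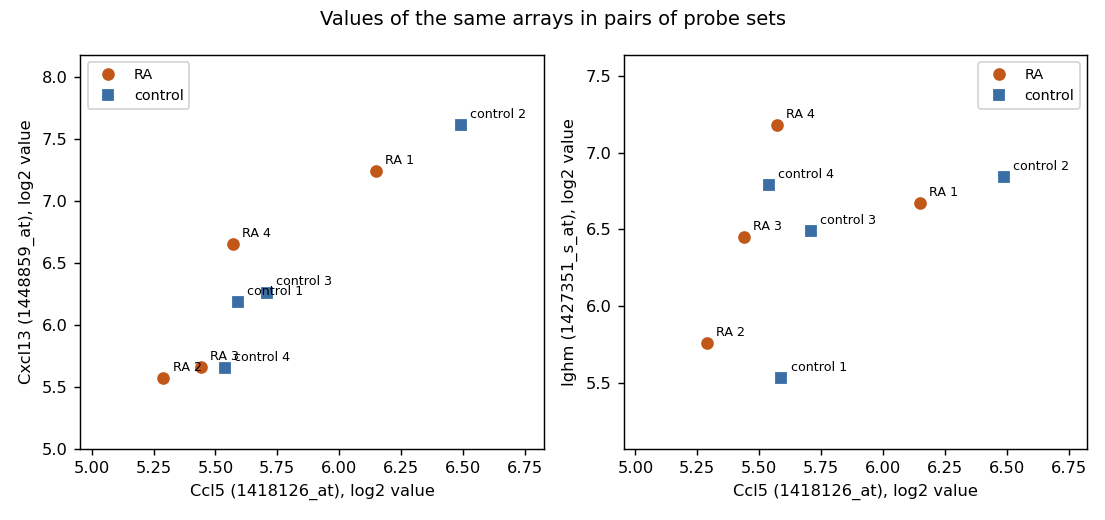
Log2 values of the 8 arrays for Ccl5 against Cxcl13 (left) and for Ccl5 against Ighm (right), with RA arrays as orange circles and control arrays as blue squares. On the left control 2 and RA 1 stand together at the upper right, and on the right Ighm is highest in RA 4, an array with low Ccl5.

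The genes with the profile most like that of the 6 probe sets included genes of the interferon response. Of 2492 other genes with a measured probe set, Xaf1, an interferon-induced regulator of cell death, was the closest to their mean profile (Pearson r = 0.954 over 8 arrays) and to Cxcl13 (0.960), and Cxcl10, a chemokine induced by interferon that draws T cells, was the closest to Ccl5 (0.922). The other 9 of the 10 genes closest to the mean profile were Heca, Arpc1a, a subunit of the actin-nucleating Arp2/3 complex, the deconjugase of the interferon-induced protein ISG15 Usp18, Prr5l, Prr18, 1700047M11Rik, the 2'-5' oligoadenylate synthetase-like gene Oasl2, Cxcl10 itself and the nucleotide kinase Cmpk2, with r of at least 0.883, and Phf11d was among the 5 closest to Ccl5 and to Cxcl13. Of these 11 genes, 3 are on the list of interferon and MHC class I genes and 1 is on the chemokine list. Control 2 was the highest array in 7 of the 11, and control 2 and RA 1 were the 2 highest in 5. Arpc1a, Prr5l, Prr18 and 1700047M11Rik were highest in RA 4. Likeness to lymphocyte genes could not be read from this ranking, since Eomes was the only measured gene of the lymphocyte lists outside the 10 genes. With 8 arrays and so many genes some high correlations arise by chance, so these values only rank the genes.

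Xaf1 had log2 values of 6.70, 6.01, 6.15 and 6.61 in RA 1 to RA 4, against 6.24, 7.14, 6.23 and 6.16 in control 1 to control 4. Cxcl10 had 6.09, 5.44, 5.44 and 5.62 in RA 1 to RA 4, against 5.37, 6.58, 5.40 and 5.65 in control 1 to control 4. In both, control 2 was the highest array and RA 1 the second, as in Ccl5. Their log2 fold changes were -0.08 (limma standard error 0.277 and adjusted p = 0.946) and -0.10 (limma standard error 0.308 and adjusted p = 0.931), and neither was called by the rank product. Oasl2 showed the same 2 high arrays with a wider range, at 6.91, 5.64, 5.24 and 6.49 in RA 1 to RA 4, against 5.94, 7.75, 5.46 and 6.09 in control 1 to control 4.

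**Figure D5:**
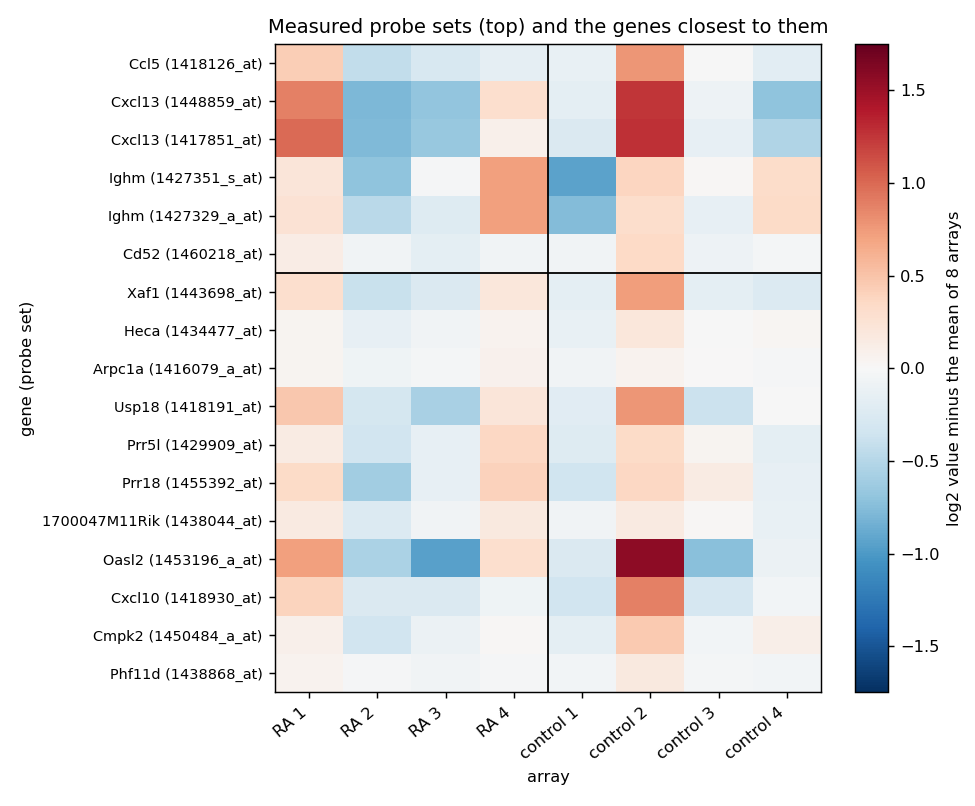
Log2 value minus the mean of the 8 arrays, for the 6 measured probe sets (above the line) and for the 11 genes with the most similar profile (below it). RA arrays are on the left and control arrays on the right. The columns of control 2 and RA 1 are red in Ccl5, Cxcl13, Xaf1, Usp18, Oasl2 and Cxcl10. Arpc1a, Prr5l, Prr18 and 1700047M11Rik are highest in RA 4.

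The promoters of Cxcl13 and Cxcl10 are shown because both chemokines were high in control 2 and RA 1. Each is the 250 bases before the start site on the coding strand (RefSeq, GRCm38.p6), at chr5:95956689-95956938 on the plus strand for Cxcl13 and at chr5:92348890-92349139 on the minus strand for Cxcl10. Capitals mark matches on either strand to GAAANNGAA, a core of the interferon-stimulated response element, through which interferon signalling acts on its target genes.
Cxcl13: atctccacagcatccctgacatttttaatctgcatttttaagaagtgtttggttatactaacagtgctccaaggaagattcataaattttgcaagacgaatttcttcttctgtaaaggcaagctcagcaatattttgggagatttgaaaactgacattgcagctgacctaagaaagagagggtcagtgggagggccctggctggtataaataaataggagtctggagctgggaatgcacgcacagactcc
Cxcl10: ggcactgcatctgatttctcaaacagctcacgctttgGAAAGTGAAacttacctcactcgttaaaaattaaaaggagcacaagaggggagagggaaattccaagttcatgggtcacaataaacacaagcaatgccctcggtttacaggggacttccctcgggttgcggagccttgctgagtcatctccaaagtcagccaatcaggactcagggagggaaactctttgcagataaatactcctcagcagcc
The Cxcl10 window holds 1 match, starting at base -213 from the start site, and the Cxcl13 window holds none. Of 32851 promoter windows of this length 7.13% hold the motif. A form longer by 1 base, GAAA and GAAA with 2 bases between them, was searched first and is held by 2.98% of the windows. It also matched Cxcl10 alone among the genes searched. These were the members of the 10 genes and of the 11 closest genes that are in the promoter table. A loose NF-kappaB pattern, GGGA and CC with 4 bases between them, is held by 17.6% of the windows and matched Cxcl13 among the 10 genes and Cxcl10, Xaf1, Prr5l and 1700047M11Rik among the closest genes. Of the 10 genes, 6 are in the promoter table (Cxcl13, Cd3e, Cd3g, Cd8a, Nkg7 and Ms4a4b), and none of these windows has a match to GAAANNGAA. Of the 11 closest genes 10 are in the table, with a match in Cxcl10 alone. A match is a run of letters and not a shown binding site.

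Of 37 chemokines and chemokine receptors with a probe set, 7 were measured by the probe set with the highest mean of each gene, which stands for a gene in all lists. The rank product called none of the 37 higher and 2 lower, which were Ccl5 and Cxcl13 themselves, where 1.35% of all 18193 genes were called higher and 0.511% lower. The Ccl5 receptors Ccr1 and Ccr3 and the Cxcl13 receptor Cxcr5 were unmeasured. Besides Cxcl10, the monocyte chemokine Ccl12 had control 2 and RA 1 as its high arrays, at 6.60, 5.53, 5.19 and 5.76 in RA 1 to RA 4, against 5.62, 6.69, 5.22 and 5.70 in control 1 to control 4 (-0.03 on the log2 scale, limma standard error 0.415 and adjusted p = 0.987). The other measured genes followed other orders. Ccl9, a chemokine of myeloid cells, was highest in control 3 (6.08), and the atypical receptor Ackr1, which binds chemokines on venules, was highest in control 1 (8.41). Cxcl12, which retains lymphocytes and progenitors, was highest in RA 2 (8.01) in its brighter probe set, with a difference of 0.14 on the log2 scale (limma standard error 0.116 and adjusted p = 0.71). Its other measured probe set was highest in RA 3 (7.04) and was called higher by the rank product, with a difference of 0.22 on the log2 scale (limma standard error 0.134 and adjusted p = 0.615), so that with any probe set of a gene 1 chemokine was called higher.

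Of 27 interferon and MHC class I genes with a probe set, 17 were measured, and control 2 was the highest array in 14 of them and, with RA 1, one of the 2 highest in 11. The mean log2 level of the 17 genes was 7.11, 6.69, 6.44 and 7.05 in RA 1 to RA 4, against 6.58, 7.41, 6.40 and 6.63 in control 1 to control 4. This is the order of Ccl5 and Cxcl13 at the top, with RA 4 close to RA 1. The rank product called 2 of the genes higher and 1 lower, the antiviral membrane protein Ifitm3 (0.46 on the log2 scale, limma standard error 0.249 and adjusted p = 0.578), the class I heavy chain H2-K1 (0.33, with a limma standard error of 0.176 and an adjusted p of 0.576) and Oasl2 (-0.24, with a limma standard error of 0.603 and an adjusted p of 0.915). Of all measured probe sets 11% were called higher and 6.89% lower. The median log2 fold change of the measured interferon and MHC class I genes was 0.01, against 0.076 over the 2134 measured genes of the array. Of the MHC class II list 3 of 7 genes were measured, among them the invariant chain Cd74 and the protease Ctss, and none was called. The mean log2 level of these 3 genes was highest in RA 1 (7.38) and control 2 (7.37), with RA 4 at 7.33. Control 2 and RA 1 were the 2 highest arrays in 1 of the 3. T and B cell receptor signalling had 3 of 27 genes measured, of which the phosphoinositide 3-kinase subunit Pik3cd was called lower (-0.67, with a limma standard error of 0.105 and an adjusted p of 0.298) and did not share the order of Ccl5, since all control arrays (11.22 to 11.62) lay above all RA arrays (10.61 to 10.84).

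Markers of other cells were compared with Ccl5 and Cxcl13 array by array. Their calls stand beside shares of 11% higher and 6.89% lower among all measured probe sets. The red blood cell genes, of which Hbb-b2 and Alas2 were measured among 6 with a probe set, had a mean log2 level of 6.27, 6.10, 6.28 and 5.82 in RA 1 to RA 4, against 5.77, 6.73, 6.09 and 6.13 in control 1 to control 4, and their summed linear level ran from 113 to 160 in the RA group and from 110 to 216 in the control group. Of the granulocyte and monocyte list 5 of 14 genes were measured, with the highest mean log2 level in RA 1 (6.30) and the next in control 2 (6.11), and a summed linear level of 257 to 426 in the RA group and 256 to 355 in the control group. In this list Lcn2, a secreted iron-scavenging protein also made by activated astrocytes, was called higher (0.31 on the log2 scale, limma standard error 0.314 and adjusted p = 0.769) with RA 1 at 6.99 and the other RA arrays at 6.13 or below. Control 2 was thus the highest array in the red cell genes, and RA 1 and control 2 were the highest in the granulocyte and monocyte genes. The part of blood in the values of Ccl5 and Cxcl13 was not tested.

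Microglia, choroid plexus and meninges had other orders of arrays. For the calls, 11% of all measured probe sets were called higher and 6.89% lower, and 1 of 8 microglia genes is near that share. Of 15 microglia genes 8 were measured, with a mean log2 level of 7.95 in RA 1 but 7.68 in control 2, against a range of 7.68 to 7.95 in the RA group and 7.46 to 7.77 in the control group, and 1 was called higher, Olfml3 (0.23, with a limma standard error of 0.0879 and an adjusted p of 0.468). All 14 choroid plexus genes with a probe set were measured and called higher, but their level was high in RA 3 (7.32), RA 4 (7.77) and control 3 (8.05) and low in control 2 (5.62). The meningeal list, with 11 of 13 genes measured and 7 called higher, was highest in RA 2 (7.86), the array with the lowest Ccl5 and Cxcl13, and lowest in control 2 (6.70). Of 3 measured endothelial genes 2 were called higher, and of 2 measured perivascular macrophage genes 1. Of 16 hippocampal neuron markers 13 were measured, and 4 were called lower (C1ql3, Nptx1, Neurod6 and Dsp). Their mean log2 level was 8.01 to 8.54 in the RA group and 8.17 to 8.71 in the control group, with no other tissue to compare. It was lowest in RA 2 (8.01) and control 1 (8.17), the 2 lowest arrays in Ighm, but highest in control 3 (8.71). A Dsp probe set, picked after its values were seen, was highest in RA 4 (7.14) and lowest in control 1 (5.09), as was Ighm. The Dsp probe set that stands for the gene in the list was highest in control 3 (7.59), with RA 4 next (7.32), and lowest in control 1 (5.36). C1ql3 had another order, with control 1 (10.41) above all RA arrays (9.40 to 9.81). A link of Ighm to these markers was not tested.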

How the data were processed

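The members and gene lists were chosen with earlier results of these data known. The authors scanned 8 Affymetrix mouse genome arrays and summarised the probes with FARMS in R, and the deposited values are log2 probe set summaries; no source used here gives their scaling between arrays. They were used without further scaling. The number of arrays limits the precision. After 64 control probe sets were left out, 45037 were tested, of which 34945 name 1 gene, 932 several and 9160 none; symbols of 34741 were updated through the gene number to GRCm38.p6 (204 as listed). Array medians were 5.833 to 5.835 in the RA group and 5.829 to 5.831 in the control group.

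The rank product was written in Python 3.11.15 (numpy 2.4.6) for 2 unpaired groups, with 16 differences, 100 permutations within arrays and a threshold of 0.05. limma 3.58.1 (R 4.3.3) gave standard errors and p-values, adjusted over all probe sets by Benjamini-Hochberg. Both were tested on simulated data. Named are all probe sets of the 10 genes, up to 4 called genes of a list (or 2 measured ones where none was called), and the 10 genes closest to their mean profile with the 5 closest to Ccl5 and to Cxcl13. Genes of the choroid plexus, meningeal, endothelial and perivascular macrophage lists are not named here. Cd4, Cd247, Zap70, Ccr1, Ccr3, Cxcr5, Ccl12, Ccl9, Ackr1, Cxcl12, Ptprc, Eomes and the kappa light chain probe set were named after their values were seen. Alternatives were other scalings, filters, thresholds and tests, a replicate block and leaving out arrays.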

Additional observations from a re-analysis of the deposited data

Results flagged for a closer look

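In Cd52, control 2 stood at a log2 value of 6.44, far from the other control arrays at 6.01 to 6.06, and its gap to the nearest was 0.88 of the range of the 4 control arrays, past Dixon's critical value for 4 samples. Of the 12 groups of 4 arrays examined this was the only one past that value. Chance alone takes each group past it at about 1 in 20, so 1 of 12 is not unusual and nothing is drawn from it. The 12 groups come from the same 8 arrays and are not independent. Control 2 was also the highest control array in Ccl5 and in both Cxcl13 probe sets. Cd52 was chosen with its values known.

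A probe set of an immunoglobulin kappa light chain segment, outside the 10 genes and chosen after its values were seen, had a log2 value of 6.03 in RA 2. The control arrays had 5.26 to 5.41. RA 3, at 5.43, was just above all of them as well, while RA 1 and RA 4 had 5.21 and 5.19. RA 2 was the lowest array in Ccl5 and Cxcl13 and among the 2 lowest in Ighm.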

How the results depend on the processing

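With all arrays, 413 probe sets were called higher by the rank product and 259 lower. It called 38 and 152 at a threshold of 0.01, 109 and 141 with the rank sum, and 4 and 17 among probe sets with an SD above 0.01. It called 50 higher with the filter on low means, and 0 higher and 128 lower without control 2 and RA 1 (added after seeing the data). With 1 array left out, the calls of higher probe sets ran from 11 (RA 1 left out) to 966 (control 1 left out), and those of lower ones ran from 133 (control 2 left out) to 317 (RA 4 left out). Array numbers are shared by both groups but pair nothing in the labels. Same-numbered arrays deviated together only for number 3 (r = 0.45; -0.12, -0.33 and -0.39 for the others), and 1 of the 4 numbers had its best match in its own number. With the replicate block 100 were called higher and 211 lower. limma called 0, and 0 to 1 with 1 array left out (1 without RA 4), but 28543 after quantile normalization and 41443 after subtraction of array medians, which shift the nearly constant values of all probe sets. The methods' t-test gave 4095 at an unadjusted 0.05 and 0 after Benjamini-Hochberg. The median log2 fold change of the 6 measured probe sets was -0.11 and ran from -0.266 (without RA 1) to 0.23 (without control 2). For Cxcl13 the log2 fold change ran from -0.463 to 0.251 and from -0.545 to 0.215, and was above 0 without control 2, RA 2 (0.094 and 0.047) and RA 3 (0.064 and 0.009). Scaling left the sign of all 6 probe sets unchanged.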
